A study of Homo sapiens with 18 samples.

Results

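The genes described here are 10 that handle heme and iron in human cells: HMOX1, FTH1, FTL, NCOA4, TFRC, SLC11A2, STEAP3, SLC40A1, ACO1 and IREB2. They were chosen by name from what the proteins do, with earlier results of these data known but with no rule on values, and each matched 1 of the 58302 rows of the gene count table. RNA-seq was performed in U87MG cells, an established human glioblastoma line, either as control cells (2 libraries, which the labels call wild type without naming a vehicle) or after Erastin at 10 μM for 72 h (2 libraries). Cells given Erastin run short of glutathione because cystine uptake through system Xc- is shut off, and they can die by ferroptosis, a form of death that depends on iron. The comparison asks how transcripts of this pathway differed after Erastin. The study's other 14 samples, which profile histone marks and chromatin loops, were not analysed here, and a single line limits what either group stands for. In bulk RNA, a change in which cells are present and a change in RNA per cell cannot be told apart.

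Heme oxygenase 1 opens the heme ring and releases ferrous iron. Ferritin, a hollow shell of heavy (FTH1) and light (FTL) chains, stores iron, and NCOA4 delivers ferritin to lysosomes when iron is needed. Transferrin receptor (TFRC) brings iron in, STEAP3 reduces it in the endosome, SLC11A2 (DMT1) carries it to the cytosol and ferroportin (SLC40A1) is the exporter. The iron regulatory proteins ACO1 (IRP1) and IREB2 (IRP2) sense cytosolic iron and bind iron-responsive elements, short hairpins in the untranslated ends of messenger RNAs. Binding near the start of the message blocks its translation, whereas binding behind the coding part of TFRC protects the message from decay.

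The hairpins carried by the members are shown because they place the ferritins, ferroportin and TFRC under the same sensors through opposite ends of the message. They were found in GENCODE release 44 transcripts (GRCh38) as the loop CAGTGN, capitals below, closed by 5 base pairs with an unpaired c before them, and each is written 5′ to 3′ in the sense of the message.
FTH1, 5′ UTR, chr11:61967574-61967602, minus strand: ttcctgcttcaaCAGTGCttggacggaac
FTL, 5′ UTR, chr19:48965335-48965363, plus strand: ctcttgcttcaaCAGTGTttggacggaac
SLC40A1, 5′ UTR, chr2:189580661-189580689, minus strand: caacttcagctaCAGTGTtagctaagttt
TFRC, 3′ UTR, chr3:196050979-196051007, minus strand: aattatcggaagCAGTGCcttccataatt
TFRC, 3′ UTR, chr3:196050575-196050603, minus strand: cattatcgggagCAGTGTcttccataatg
TFRC, 3′ UTR, chr3:196050510-196050538, minus strand: ctgtatcggagaCAGTGAtctccatatgt
TFRC, 3′ UTR, chr3:196050463-196050491, minus strand: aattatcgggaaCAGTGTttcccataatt
The pattern stood in 7 of 8 protein-coding transcripts of FTH1, in the 1 transcript of FTL, in 1 of 5 of SLC40A1 and in 10 of 11 of TFRC. Of all 89067 protein-coding transcripts, 0.145% held it. No transcript of SLC11A2, HMOX1, NCOA4, STEAP3, ACO1 or IREB2 matched these letters. SLC11A2 is nevertheless known for such an element, so the lack of a match to this strict pattern does not mean that a gene has none. Counts of RNA do not measure what these hairpins do to translation.

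The 4 libraries held 29412656 to 31513519 counts in genes. A count of 0 allows up to 3 counts if counts are independent, which correspond to 0.0955 to 0.100 CPM, counting error only. Both mates of a fragment were counted, so the true limit is higher. CPM is the usual rate of counts relative to the library total, scaled for composition with TMM here and throughout. VIM and CD44, markers of mesenchymal glioma, were abundant in every library (48117 to 77887 and 31559 to 43669 counts). Both were lower after Erastin, VIM with a log2FC of -0.60 (adjusted p = 1.27e-05) and CD44 with -0.36 (adjusted p = 0.000644). NES, an intermediate filament gene of neural progenitors, was called lower, with 1277 and 972 counts in control and 105 and 77 after Erastin (log2FC -3.62, adjusted p = 3.97e-08). The other glial markers were low or near 0, with GFAP at 41 to 81, OLIG2 at 59 to 88, SOX2 at 0 to 6 and S100B at 0 to 2 counts. Of the markers of blood cells, which also handle heme and iron, PTPRC and AIF1 had at most 1 count, CD14 had 1 to 12, CD163 had 4 to 19 and CSF1R had 147 to 259, and 5 of 5 erythroid genes had at most 3 counts in any library. The summed level of the 7 glioma markers was 3923 to 3997 CPM in control and 2672 to 2861 CPM after Erastin. Of the 5 glioma markers tested, 4 had a negative log2FC and 1 a positive one. The sum of 5 macrophage markers, nearly all of it CSF1R, was 8.80 to 8.82 and 5.62 to 6.27 CPM. CSF1R was lower after Erastin (log2FC -0.66, adjusted p = 0.0116). Of 3 endothelial markers, summed at 4.64 to 6.18 CPM in control and 1.64 to 2.07 CPM after Erastin, CDH5 had at most 1 count. PECAM1 was called lower (138 and 188, then 31 and 33 counts, log2FC -2.34, adjusted p = 4.81e-05) and VWF higher (4 and 4, then 17 and 32 counts, log2FC 2.58, adjusted p = 0.0125). The part of these shifts in the results below was not tested.

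Of the 10 members, 9 could be tested, each of them far above the low-count filter in all 4 libraries, and SLC40A1 had no counts. HMOX1, FTL and FTH1 rose past the study's thresholds, a log2 fold change (log2FC) of at least 1 with an adjusted p under 0.05, and STEAP3 fell past them. Of all 16751 genes tested, 6.24% were called higher and 9.34% lower, 15.6% in all. Without the threshold on fold, 8 of the 9 members had an adjusted p under 0.05, 7 of them higher, where 47.0% of all tested genes did (23.2% higher and 23.7% lower). The median log2FC was 0.49 over the 9 members and -0.00259 over all tested genes. The libraries of the groups did not overlap in 7 members that were higher after Erastin, a pattern found in 36.7% of all tested genes, and in STEAP3, which was lower (36.9% of all genes).

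**Figure D1:**
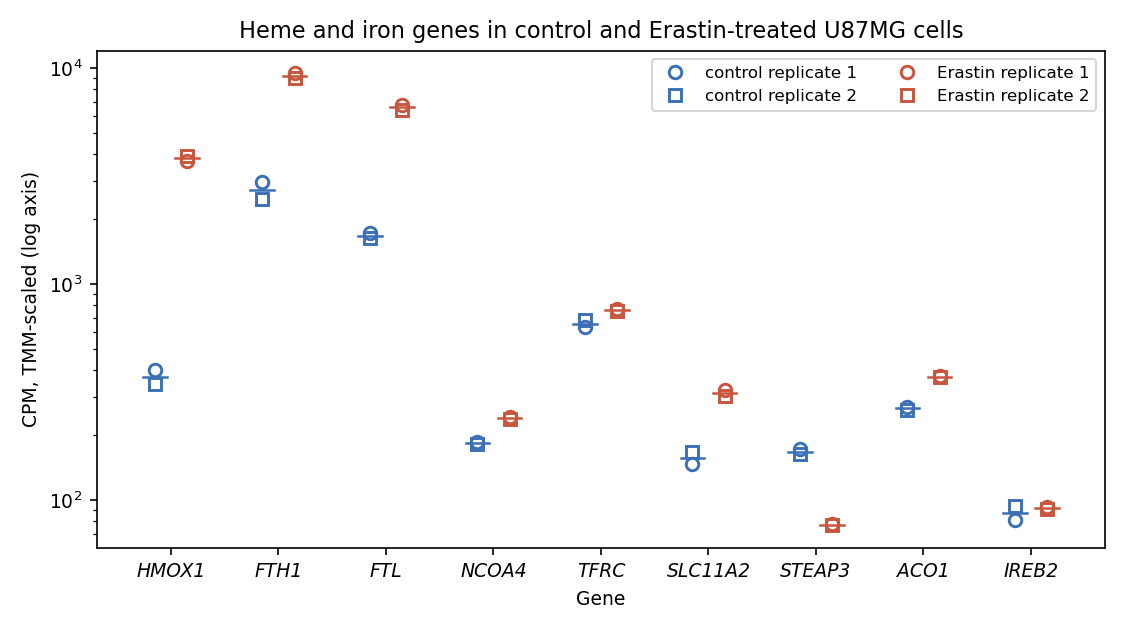
Level of the 9 members with counts, in CPM scaled with TMM on a log axis, with 1 point per library (circles, replicate 1, and squares, replicate 2) and a line at each group mean, control in blue and Erastin in red. HMOX1, FTH1 and FTL stand well above their control points after Erastin, STEAP3 stands below them, and the points of IREB2 overlap.

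Heme oxygenase 1 showed the largest change of the members. HMOX1 (ENSG00000100292, chr22:35380361-35394214, plus strand) had 12200 and 10699 counts in control and 110980 and 123447 counts in Erastin-treated cells. Both treated libraries lay far above both controls, while the libraries within a group lay close together. Its level was 372 ± 38.6 CPM (SD, n = 2) in control and 3820 ± 155 CPM after Erastin, a 10.3-fold rise (log2FC 3.36, SE 0.0836, 95% interval 3.18 to 3.54, adjusted p = 1.9788e-10). Only 114 of the 16751 tested genes had a larger log2FC. Per kilobase of exon, HMOX1 ranked 131 and 163 among all genes without Erastin, and 12 and 13 with it. None of its exon bases overlapped another gene, and none of its 31-base words occurred elsewhere in the reference genome.

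The rest of the heme breakdown route did not follow HMOX1. BLVRA, which reduces the biliverdin released by heme oxygenase to bilirubin, fell from 60.1 ± 1.02 to 31.7 ± 1.29 CPM (log2FC -0.93, adjusted p = 4.06e-06). BLVRB, a second biliverdin reductase that is also a flavin reductase, fell from 104 ± 7.15 to 77.8 ± 3.38 CPM (log2FC -0.42, adjusted p = 0.000774). Neither reached the fold threshold. The constitutive heme oxygenase HMOX2 had 0 counts in every library, but 92.8% of its 31-base words also occurred on an alternate scaffold of the reference, and reads that map to more than 1 place were not counted. Its neighbour NMRAL1, with 91.9% of its words on such a scaffold, had 0 counts too. The 0 of HMOX2 therefore gives no level for that gene.

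Transcripts of both ferritin chains rose, while ferritin protein and stored iron were not measured. In a separate assay, the study reported more intracellular ferrous iron after the same Erastin treatment. FTH1 (ENSG00000167996, chr11:61959718-61967660, minus strand), the heavy chain that oxidizes ferrous iron, had 90677 and 77169 counts in control and 282909 and 281331 after Erastin. FTL (ENSG00000087086, chr19:48965301-48966878, plus strand), the light chain that helps form the mineral core, had 52851 and 50588 counts in control and 202599 and 201456 after Erastin. Each chain was more than 3 times as abundant in either treated library as in either control, with no overlap. FTH1 rose from 2725 ± 340 to 9206 ± 357 CPM (log2FC 1.76, SE 0.0836, 95% interval 1.57 to 1.94, adjusted p = 1.45e-08). FTL rose from 1678 ± 70.7 to 6592 ± 256 CPM (log2FC 1.97, SE 0.0665, 95% interval 1.83 to 2.12, adjusted p = 1.02e-09). By CPM per kilobase of exon, FTL ranked 11 among all genes in both controls and 1 in both treated libraries, and FTH1 ranked 17 and 18 in control and 2 and 3 after Erastin. These ranks use the full exon length of FTH1, and with only the bases that no other gene shares FTH1 stood above FTL per kilobase, 1.86 times in control and 1.61 times after Erastin.

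The ferritin chains and HMOX1 took a much larger share of each treated library. FTH1 and FTL together held 0.455% and 0.409% of all counts in control and 1.65% and 1.56% after Erastin. With HMOX1 the share was 0.494% and 0.443% in control and 2.03% and 1.96% after Erastin. Leaving the ferritins and the most abundant genes out of the scaling factor did not end any of the 3 calls.

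**Figure D2:**
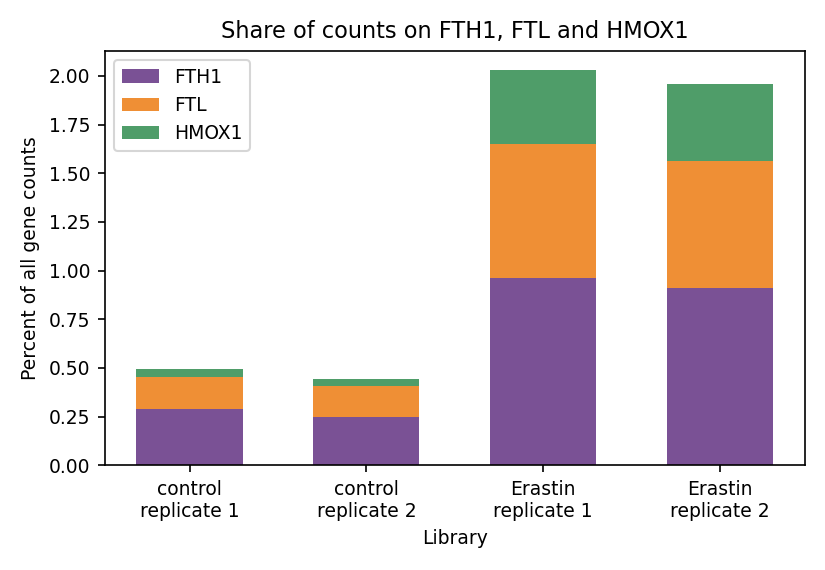
Percent of all gene counts on FTH1, FTL and HMOX1, stacked, in each of the 4 libraries. The 3 genes make up under 0.5% of each control library and about 2% of each Erastin library, and FTH1 is the thickest band in all 4.

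The balance of the chains moved less than their levels. The ratio of FTH1 to FTL per kilobase was 0.742 and 0.660 in the control libraries and 0.604 in each treated library, so that both treated values lay below both controls. The log2 change was -0.21, which was larger than the pooled SD of 0.0848, but 2 against 2 libraries cannot give a two-sided exact permutation p under 0.33, the value found. Which chain was the more abundant per length was not settled, since FTH1 shares 62.4% of its exon bases with exons of BEST1 on the opposite strand and reads in shared bases were dropped. The direction of the change in the ratio does not depend on that length.

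Reads of the ferritins also touch near-identical copies, since 60.9% of the 31-base words of FTH1 and 52.1% of those of FTL occur elsewhere in the genome. The 25 listed FTH1 pseudogenes held 2029 and 1676 counts in control and 6414 and 6204 after Erastin, which was 2.17% to 2.27% of the count of FTH1 in every library. The most counted, FTH1P2, had 775 and 606 counts in control and 2666 and 2431 after Erastin. FTH1P2, FTH1P8 and FTH1P7 rose 3.71-, 3.05- and 3.81-fold, near the 3.38-fold of FTH1 itself, and FTLP3 rose 3.70-fold beside the 3.93-fold of FTL. BEST1, a chloride channel of the eye, rose 2.79-fold (182 and 215 counts in control, 526 and 578 after Erastin, adjusted p = 7.43e-06). Without strand, reads of BEST1 and FTH1 cannot be told apart where they overlap, and such reads were dropped. The pseudogene counts are uncertain for another reason, that near-identical copies can take reads of their parent gene.

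NCOA4, the cargo receptor that takes ferritin to the lysosome, changed much less than its cargo. NCOA4 (ENSG00000266412, chr10:46005088-46030714, minus strand) had 5708 and 5674 counts in control and 7255 and 7444 after Erastin, with no overlap. It rose from 185 ± 2.85 to 240 ± 3.99 CPM (log2FC 0.38, SE 0.0641, adjusted p = 0.000469), below the fold threshold. The ranges of the 95% intervals of NCOA4 (0.24 to 0.52) and of either ferritin chain did not meet. Some 22.7% of the 31-base words of NCOA4 occur elsewhere in the genome.

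**Figure D3:**
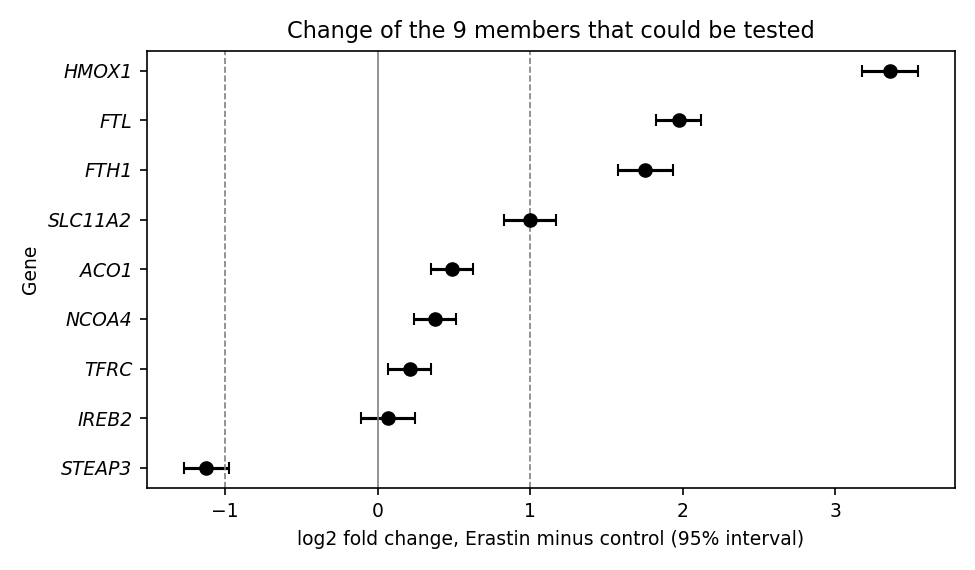
Log2 fold change, Erastin minus control, of the 9 members that could be tested (points) with the 95% interval of the fit (bars), with dashed lines at the thresholds of -1 and 1. HMOX1, FTL and FTH1 lie right of the upper threshold, SLC11A2 lies on it, and the interval of STEAP3 reaches just across the lower one.

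On the import side the members went different ways. TFRC (ENSG00000072274, chr3:196027183-196082189, minus strand), which takes up transferrin-bound iron, had 19278 and 21097 counts in control and 22882 and 23594 after Erastin. Both treated libraries were above both controls, by a small margin. Its level was 655 ± 34.4 CPM in control and 758 ± 9.97 CPM after Erastin (log2FC 0.21, SE 0.0648, 95% interval 0.07 to 0.35, adjusted p = 0.0186). The adjusted p rose above 0.05 without control replicate 1 (0.0506), Erastin replicate 1 (0.140) or Erastin replicate 2 (0.0828).

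SLC11A2 (ENSG00000110911, chr12:50979401-51028566, minus strand), which moves ferrous iron out of the endosome, had 4483 and 5221 counts in control and 9700 and 9564 after Erastin. Its groups were well apart. It rose 2.00-fold, from 157 ± 15.2 to 314 ± 14.1 CPM, and its log2FC of 0.998 (SE 0.0782, 95% interval 0.83 to 1.17, adjusted p = 9.16e-07) fell just short of the threshold of 1. Its log2FC reached 1 under 5 of 14 alternative fits and stayed below 1 under the other 9. It was 1.00 with DESeq2, 1.05 with library totals as the only scaling and 1.00 with the replicate number as a block. It was 1.09 without control replicate 2 and 1.04 without Erastin replicate 2. Without control replicate 1 it was 0.90, and without Erastin replicate 1 it was 0.95. A test against a log2FC of 1 did not call the gene.

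STEAP3 was the member that fell. STEAP3 (ENSG00000115107, chr2:119223831-119265652, plus strand), a metalloreductase that turns ferric into ferrous iron in the endosome, had 5253 and 5093 counts in control and 2321 and 2407 after Erastin. Replicates lay close together in both groups. The level dropped 2.18-fold, from 168 ± 5.55 to 77.1 ± 0.701 CPM (log2FC -1.12, SE 0.0685, 95% interval -1.27 to -0.97, adjusted p = 1.14e-07). The interval includes -1, and a test against a fold of that size gave an adjusted p of 0.153, so the fall was shown but its passing the threshold was not. The antisense gene STEAP3-AS1, which shares 10.96% of the exon bases of STEAP3, had 29 and 30 counts in control and 3 and 15 after Erastin.

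Ferroportin, the exporter of ferrous iron, was not detected. SLC40A1 (ENSG00000138449, chr2:189560579-189583758, minus strand) had 0 counts in all 4 libraries. If counts were independent, that would allow up to 0.100 CPM in the least deep of them. The true limit is higher, because both mates of a fragment were counted. None of its exon bases overlap another gene and none of its 31-base words occur elsewhere in the reference. The other listed export genes were CP, HEPH and HEPHL1, ferroxidases that work with ferroportin, and HAMP, which encodes the hormone hepcidin. None of the 5 reached the count needed for a test, and mean levels were at most 0.324 CPM, that of CP after Erastin.

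Of the iron sensors, ACO1 rose by less than the fold threshold and IREB2 showed no clear change. ACO1 (ENSG00000122729, chr9:32384603-32454769, plus strand), an aconitase that binds iron-responsive elements when it loses its iron-sulfur cluster, had 8302 and 8117 counts in control and 11240 and 11649 after Erastin. Its groups did not overlap, and it rose from 266 ± 7.23 to 373 ± 3.56 CPM (log2FC 0.49, SE 0.0632, 95% interval 0.35 to 0.63, adjusted p = 5.95e-05). IREB2 (ENSG00000136381, chr15:78437431-78501456, plus strand), whose protein is removed when iron is plentiful, had 2490 and 2916 counts in control and 2788 and 2851 after Erastin. The treated libraries lay between the controls, and the gene did not pass the test (87.7 ± 8.79 and 92.0 ± 1.75 CPM, log2FC 0.07, 95% interval -0.11 to 0.25, adjusted p = 0.519). The ratio of IREB2 to ACO1 per kilobase was 0.210 and 0.251 in control and 0.173 and 0.171 after Erastin (log2 change -0.41, exact permutation p = 0.33, the smallest this design gives). FBXL5, which marks IREB2 protein for degradation, was at 45.3 ± 2.84 and 39.1 ± 1.11 CPM (log2FC -0.21, adjusted p = 0.0742, and 0.0362 without control replicate 1).

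Some genes outside the members are also known for an iron-responsive element in their transcripts. The pattern searched above stood in 0 of 9 protein-coding transcripts of CDC42BPA, 1 of 8 of CDC14A, 0 of 2 of EPAS1 and 7 of 8 of ALAS2. CDC42BPA, a kinase of the cytoskeleton, rose from 224 ± 1.04 to 402 ± 17.9 CPM (log2FC 0.84, adjusted p = 8.51e-07). CDC14A, a phosphatase, rose from 6.60 ± 0.408 to 9.47 ± 1.02 CPM (log2FC 0.52, adjusted p = 0.0295), and EPAS1, the hypoxia factor HIF-2α, rose from 427 ± 40.2 to 533 ± 20.7 CPM (log2FC 0.32, adjusted p = 0.00401). None of them reached the fold threshold. ALAS2, the erythroid form of the first heme synthesis enzyme, had at most 3 counts and was not tested.

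Among regulators that act on these genes, 8 of 10 had an adjusted p under 0.05 on the higher side and 1 on the lower, beside 23.2% and 23.7% of all tested genes. NFE2L2, which encodes the oxidative stress factor NRF2, rose from 70.1 ± 7.59 to 117 ± 5.13 CPM (log2FC 0.74, adjusted p = 2.16e-05). KEAP1, whose protein holds NRF2 down, rose from 69.6 ± 1.33 to 158 ± 4.17 CPM (log2FC 1.18, adjusted p = 7.60e-08), and MAFK, a small MAF partner of NRF2 and BACH1, rose from 32.4 ± 2.54 to 71.5 ± 5.58 CPM (log2FC 1.14, adjusted p = 1.33e-06). BACH1, a heme-binding repressor of HMOX1 and the ferritin genes, had a log2FC of 0.24 (adjusted p = 0.0224), which did not stay under 0.05 with DESeq2 (0.0525) or without control replicate 2 (0.0760), Erastin replicate 1 (0.105) or Erastin replicate 2 (0.0979). HIF1A, the hypoxia factor HIF-1α, fell from 1349 ± 23.8 to 641 ± 16.5 CPM (log2FC -1.07, adjusted p = 7.60e-08). Against a fold of 2 itself, the adjusted p was 0.231 for MAFK and 0.366 for HIF1A.

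The NRF2 and BACH1 core motif TGACNNNGC was searched on both strands of RefSeq promoters (GRCh38.p14, 250 bases before to 50 after a start). Of the members, 8 had a promoter in the table, with 13 promoters in all, and HMOX1 and FTH1 did not. The motif stood in 1 promoter of NCOA4, starting 23 bases after the start, and 13.3% of all 35116 promoters held it. A match or its absence in these 300-base windows says nothing of binding.

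Over all the heme and iron lists without the members, the regulators included, 60 of 72 genes could be tested and their median log2FC was 0.16. Of these, 4 were called higher and 2 lower, beside 6.24% and 9.34% of all tested genes, so that the share called higher was about that of all genes. KEAP1, MAFK and HIF1A are given above. FDXR, which feeds electrons into mitochondrial iron-sulfur cluster assembly and is also known as a p53 target, rose from 22.3 ± 2.96 to 61.7 ± 1.04 CPM (log2FC 1.47, adjusted p = 4.46e-07). Of the 9 heme synthesis genes, none passed both thresholds. ALAS1, which makes the first committed intermediate, rose from 96.5 ± 0.227 to 127 ± 1.14 CPM (log2FC 0.39, adjusted p = 0.000451), and FECH, which inserts the iron, was at 28.3 ± 0.546 and 27.1 ± 1.61 CPM (log2FC -0.06, adjusted p = 0.684). Called from few counts were HPX, the plasma heme scavenger, with 2 and 4 counts in control and 12 and 26 after Erastin (log2FC 2.61, adjusted p = 0.0239), and BMP6, which signals iron load to the liver, with 40 and 33 and then 4 and 10 counts (log2FC -2.36, adjusted p = 0.00787). The call of HPX was lost with DESeq2 (adjusted p = 0.0765). It was also lost without control replicate 1 (log2FC 2.22), control replicate 2 (3.15) or Erastin replicate 2 (2.00). That of BMP6 was lost without control replicate 1 (log2FC -2.21). Tested against a log2 fold change of 1, the adjusted p was 0.218 for HPX and 0.108 for BMP6. Neither gene was tested when every library had to hold at least 10 counts.

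**Figure D4:**
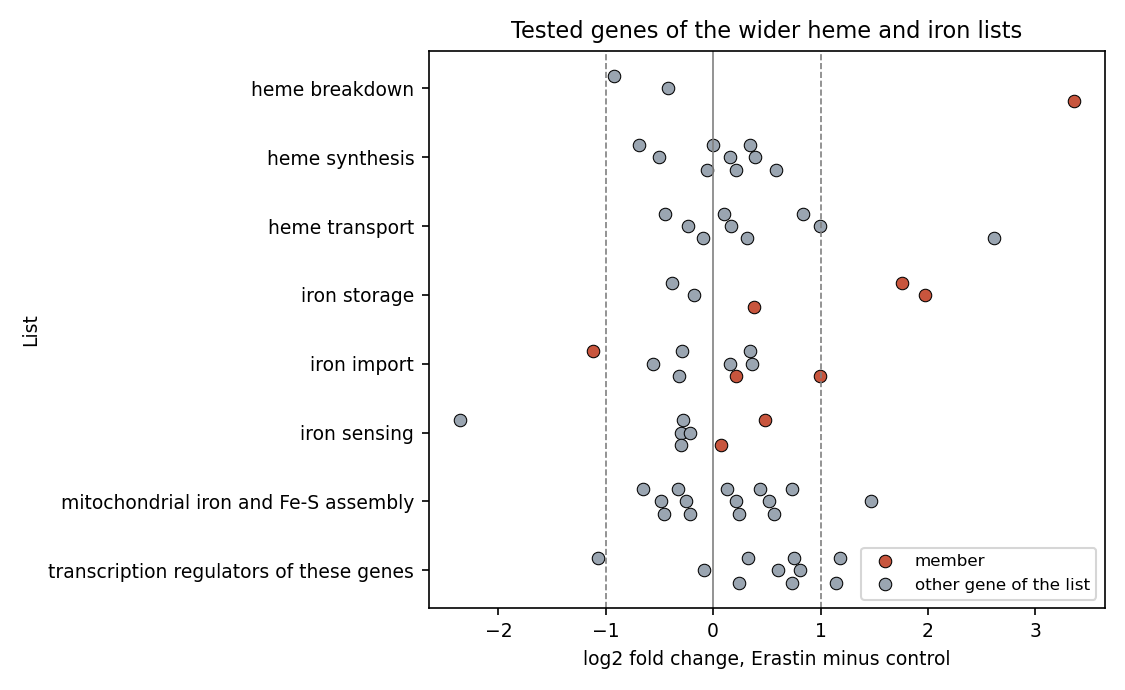
Log2 fold change, Erastin minus control, of every tested gene of 8 heme and iron lists (1 point per gene, members in red, others in grey, dashed lines at -1 and 1). HMOX1 stands at 3.36 while both other heme breakdown genes are negative, and 8 of the 10 regulators are to the right of 0.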

How the data were processed

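RNA was sequenced by the study from U87MG cells in 2 control and 2 Erastin libraries. Per the labels and the file header, the authors aligned reads to hg38 with HISAT2 2.1.0 and deposited raw counts per gene made with featureCounts (2.0.3 in the header, 2.0.4 in the labels, whereas the methods name htseq-count) on Ensembl release 90. Strand was not used, both mates of a fragment added a count each, and reads that mapped to more than 1 place or overlapped more than 1 gene were dropped. Mates are not independent, so that counting error is understated. The deposited columns were tested for the decimals of estimated counts, and every value was whole. Lengths are the union of exons.

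Counts were tested with edgeR 4.0.16 in R 4.3.3 (filterByExpr, TMM, quasi-likelihood, two-sided, Benjamini-Hochberg over 16751 genes). In simulated counts it recovered 200 of 200 genes given large changes (median absolute log2FC 1.96). Smaller changes and changes in weakly expressed genes were not simulated, so sensitivity to them is not known. Alternatives included DESeq2 1.42.0. No label says that the replicates were separate cultures, so p-values measure the spread between these libraries, which may be technical. Ratios were tested by exact permutation. Symbols were matched for 57532 of 58302 genes. Named were all members, listed genes past both thresholds, 9 listed genes of known roles, the ferritin pseudogenes of most counts, genes that overlap a member and the 3 closest patterns for 3 members. CDC42BPA, CDC14A, EPAS1 and CP were named after their values were seen, and 1 listed gene is not reported here. The members and the lists were chosen with earlier results of these data known.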

Additional observations from a re-analysis of the deposited data

How the results depend on the processing

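The same 4 members (HMOX1, FTH1, FTL, STEAP3) were called under 13 of 14 alternatives fitted across genes, and 3 under a test against a log2 fold change of 1. That test gave 377 genes higher, 748 lower, 0 members lower, 3 members with an adjusted p under 0.05 and 0 listed genes lower. The other counts stayed within 1.5 times. Replicates left out in turn gave 895 to 1066 genes higher, 1446 to 1526 lower, 3 to 4 members higher, 1 member lower, 7 to 8 members with an adjusted p under 0.05, and 7 to 8 listed genes higher and 2 to 3 lower. The log2 change then ran from -0.30 to -0.13 for FTH1 to FTL and from -0.54 to -0.28 for IREB2 to ACO1. With 1 replicate left out, the log2FC of IREB2 ran from -0.032 (without control replicate 1) to 0.17, and that of FECH from -0.12 to 0.00158 (without Erastin replicate 2). With the longest transcript as length the control ratios were 1.17 for FTH1 to FTL and 0.388 for IREB2 to ACO1, and with bases free of overlap, chosen after seeing the data, 1.86 for FTH1 to FTL, because the lengths differ. The labels tie same-numbered libraries only by their number. The correlation of their deviations was 0.0293, which with 2 libraries a group cannot settle whether they were prepared together. The replicate block gave 1039 genes higher, 1568 lower, 4 members higher and 1 lower, and ratio changes of -0.21 and -0.41. SLC11A2 was the added member. It was also called higher, beside the same 4 members, with DESeq2 and with library totals as the only scaling. Its log2FC was also over 1 without control replicate 2 and without Erastin replicate 2. Library totals as the only scaling moved the median of all genes to 0.05. With 2 libraries a group, a change the size of that of TFRC is at the limit of what was resolved.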

Other observations

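The genes whose pattern over the 4 libraries lay closest to those of HMOX1, FTH1 and TFRC come from other processes. Likeness was the root mean square difference of log2 CPM, each gene set to its own control mean, over 9507 genes of at least 10 CPM, and any gene with a like fold change and tight replicates can rank high. For HMOX1 they were TXNIP (difference 0.0995), an inhibitor of thioredoxin that rose from 67.1 and 68.5 to 663 and 677 CPM, the extracellular protease ADAMTS5 (0.135), and RHOB (0.151), a small GTPase. For FTH1 they were SLC7A5 (0.0319), a large neutral amino acid transporter, the transcription factor gene MSC (0.0606), and IQCN (0.0718). For TFRC they were IFNGR1 (0.00263), an interferon gamma receptor chain, TMEM79 (0.00480) and DIPK2A (0.00897).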
